A study of Mus musculus with 2 samples.

Results

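Metallothioneins and the transporters that move zinc across membranes were described here in the livers of wild-type (WT) and CREBH-Tg mice. The 8 members were chosen by gene symbol: the metallothioneins Mt1 and Mt2, the transcription factor gene Mtf1, the zinc importer genes Slc39a4, Slc39a8 and Slc39a14, and the zinc exporter genes Slc30a1 and Slc30a10. All 8 had a probe well above background on both arrays, among 13883 genes that did. The strain label of both genotypes is C57B6J. The CREBH-Tg animals carry human CREBH cDNA coding for the active form, expressed mostly in liver. CREBH is a liver transcription factor of the endoplasmic reticulum, encoded in the mouse by Creb3l3. Both genotypes received the diet labelled HFHS, over 12 weeks. The RNA came from livers pooled within each genotype, and each pool was hybridised to 1 one-colour Agilent array. The sources used here do not give the promoter that drives the transgene, the number of mice per pool, or their age and sex. Since each genotype has a single array, no difference below could be tested, and values are compared by size only. In pooled bulk tissue, fewer cells of a type and less RNA per cell cannot be told apart.

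Metallothioneins are small, cysteine-rich proteins that bind zinc, copper and cadmium and buffer free zinc in the cell. Mt1 and Mt2 are transcribed in liver in response to zinc, glucocorticoids, oxidative stress and interleukin-6, and count among the acute phase genes of the mouse. The factor MTF1 senses zinc and binds metal response elements (MREs) in the promoters of Mt1, Mt2 and Slc30a1. Transporters of the ZIP family, encoded by Slc39a genes, bring zinc into the cytosol. Transporters of the ZnT family, encoded by Slc30a genes, carry it out of the cytosol or into vesicles.

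The promoter windows of Mt1, Mt2, Mt3 and Slc30a1 are shown because the first pair differed most between the arrays and the other genes hold MRE cores as well. The sequences are RefSeq's on GRCm38.p6, all on the plus strand, from 250 bases before the listed start to 50 bases after it. Capitals mark the MRE core, searched as TGCACNC or TGCGCNC on both strands.
Mt1, chr8:94178839-94179138: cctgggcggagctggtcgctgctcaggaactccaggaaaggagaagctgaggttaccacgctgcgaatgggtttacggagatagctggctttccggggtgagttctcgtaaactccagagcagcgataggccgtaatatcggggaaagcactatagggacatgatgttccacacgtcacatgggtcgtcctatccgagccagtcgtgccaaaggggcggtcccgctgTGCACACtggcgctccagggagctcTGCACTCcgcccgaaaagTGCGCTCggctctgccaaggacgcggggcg
Mt2, chr8:94172368-94172667: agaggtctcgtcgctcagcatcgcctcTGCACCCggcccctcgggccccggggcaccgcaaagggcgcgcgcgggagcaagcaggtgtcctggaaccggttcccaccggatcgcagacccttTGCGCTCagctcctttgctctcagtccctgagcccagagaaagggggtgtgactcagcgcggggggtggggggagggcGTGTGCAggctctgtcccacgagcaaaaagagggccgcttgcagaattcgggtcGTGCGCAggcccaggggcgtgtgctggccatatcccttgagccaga
Mt3, chr8:94152357-94152656: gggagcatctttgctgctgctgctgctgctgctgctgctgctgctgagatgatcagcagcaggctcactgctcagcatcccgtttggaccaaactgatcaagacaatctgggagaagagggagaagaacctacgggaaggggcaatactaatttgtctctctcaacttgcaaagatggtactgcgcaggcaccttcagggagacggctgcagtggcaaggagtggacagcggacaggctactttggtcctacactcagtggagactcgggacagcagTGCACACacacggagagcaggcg
Slc30a1, chr1:191906531-191906830: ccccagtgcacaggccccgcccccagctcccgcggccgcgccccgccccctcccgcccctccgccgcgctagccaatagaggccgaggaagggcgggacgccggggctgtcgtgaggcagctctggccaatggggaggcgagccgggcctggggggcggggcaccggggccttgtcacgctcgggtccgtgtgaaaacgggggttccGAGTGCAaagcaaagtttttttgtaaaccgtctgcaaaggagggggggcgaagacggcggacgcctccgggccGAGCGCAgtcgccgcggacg
Windows were held for 6 of the 8 members. The core occurred 4 times in the Mt2 window, 3 times in that of Mt1 and 2 times in that of Slc30a1. Among 32851 windows of the same length, 25.7% held at least 1 core, 7.11% at least 2, 1.97% at least 3 and 0.517% at least 4. Counting the base at the table's listed start as 1, the Mt1 cores began at -23, 3 and 21, and the Mt2 cores at -223, -128, -50 and 5. The Slc30a10 window held 3 cores, and 2 of those overlap on opposite strands. The Mtf1 window held none. Of the pair of Slc39a8 windows, 1 held a single core. The windows of the other metallothioneins, Mt3 and Mt4, held 1 core each. The half-site of the cAMP response element, TGACG, was found in 20.8% of windows, and once each in those of Mt1, Mtf1 and Slc39a8. The antioxidant response element core, TGACNNNGC, was found in 12.4% of windows, and once each in those of Mt2, Slc30a1 and Slc39a8, where it overlaps the half-site. The STAT motif TTCNNNGAA, present in 8.30% of windows, had no match in these windows. The listed start of Mt1 lies 206 bases inside the span that RefSeq gives the gene, and that of Slc30a1 84 bases inside, so another transcript start may apply to the positions and counts of these genes. The starts of both Slc39a8 windows also lie inside that gene's span. These matches describe letters only, and other start sites were not searched.

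Levels are the log2 of the processed spot signal relative to the 75th percentile of the same array, which was 333 intensity units for WT and 309 for CREBH-Tg. Of the non-control spots, 55.4% and 58.3% were well above background, and none was saturated. The hepatocyte markers Alb, Apoa1, Ttr, Cps1, Hnf4a, Serpina1a, Trf, Asgr1 and F9 were measured in both pools. Error was taken from probes spotted at least 5 times. Genes were split by signal into 3 classes of equal size, and the log2 ratios of these repeated spots had a 95% range of 0.40 for the dimmest class, 0.17 for the middle and 0.095 for the brightest. The scanner software gives its own error, about 10% of the signal for each member, which carries to a 95% range of 0.40 for a log2 ratio. Neither measure covers variation between animals, pools, labelling reactions or hybridisations.

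Mt1 and Mt2 were the members that differed most between the pools, and both were higher in CREBH-Tg liver. The processed intensity of Mt1 was 42256 in WT and 105190 in CREBH-Tg, or 6.99 and 8.41 on the scaled log2 level. That is 2.68-fold higher, a log2 ratio of 1.42. For Mt2 the intensity was 20047 in WT and 54204 in CREBH-Tg, with scaled log2 levels of 5.91 and 7.46. Mt2 was thus 2.91-fold higher, a log2 ratio of 1.54. Both ratios exceeded the 95% ranges of spot noise, 0.095 for bright genes, and of the scanner's error model, 0.40. The log2 ratios of Mt1 and Mt2 differed by 0.12, within the 0.13 that spot noise allows for such a difference. Their transcripts are close in sequence, so cross-hybridisation between their probes was not tested and their separate values are uncertain.

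**Figure D1:**
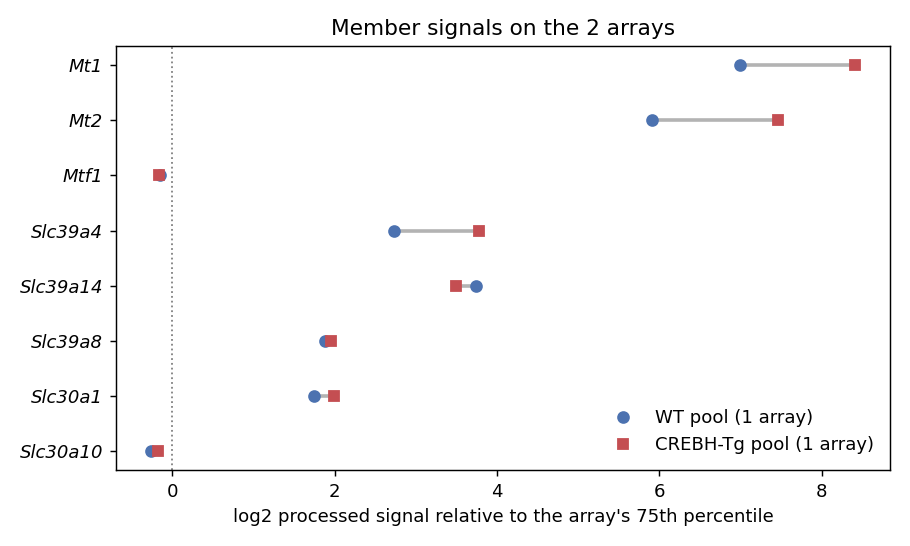
Scaled log2 signal (x axis, relative to each array's 75th percentile) of the 8 members (y axis) on the WT array (circles) and the CREBH-Tg array (squares), 1 array each. Points are to be compared within a row: the wide gaps are those of Mt1 (6.99 to 8.41), Mt2 (5.91 to 7.46) and Slc39a4 (2.73 to 3.78).

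In all, 3 of the 8 members, 37.5%, were at least 2-fold higher in CREBH-Tg liver, against 0.663% of all 13883 genes. These were Mt1, Mt2 and Slc39a4. Members were chosen with earlier results of these data known, so this share only describes them. None of the 8 was at least 2-fold lower, against 0.67% of all genes. In the brightest class, where these 3 members lie, 0.303% were at least 2-fold higher, 14 genes of 4628, and 0.13% at least 2-fold lower. Mt2 ranked 7, Mt1 9 and Slc39a4 14 among those 4628 log2 ratios from the highest down. Beyond spot noise, 4 members were higher and 1 was lower, where 20.8% and 13.3% of all genes were, and 35.8% and 15.5% of the brightest class. Lying beyond spot noise is thus common among bright genes. The members at issue were Mt1, Mt2, Slc39a4 and Slc30a1 on the higher side and Slc39a14 on the lower.

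**Figure D2:**
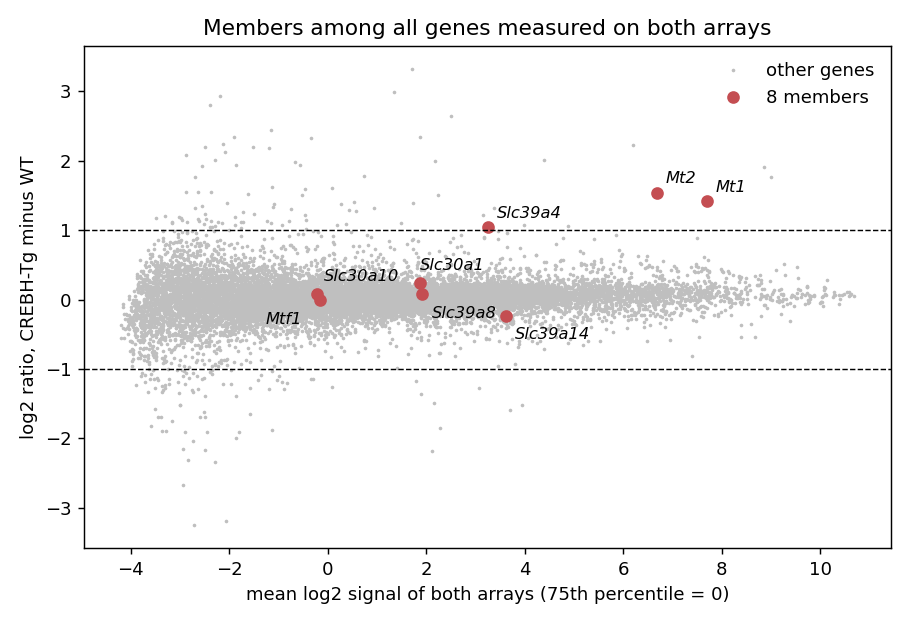
Log2 ratio of CREBH-Tg over WT (y axis) against mean log2 signal of both arrays (x axis) for all 13883 genes (grey) and the 8 members (red, labelled), with dashed lines at 2-fold. Mt1, Mt2 and Slc39a4 lie above the upper line and the other 5 members lie within the grey band.

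The other metallothioneins stand beside Mt1 and Mt2 in the genome and did not reach 2-fold. Mt3, known as the brain metallothionein, had scaled log2 levels of 0.27 in WT and 0.36 in CREBH-Tg. Its log2 ratio of 0.088 was within the 95% range of spot noise. Mt4, known from stratified epithelia, was dim, with levels of -3.42 and -3.14. Its log2 ratio of 0.28 was within the 0.40 of the dimmest class. The family thus had 2 of 4 genes at least 2-fold higher and a median log2 ratio of 0.85, against 0.026 for all genes. The 4 genes were above 0 under each scaling tried, as were 56.0% of all genes in the main values and 49.3% to 73.4% over the scalings.

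Mtf1, the gene of the zinc-sensing factor, was near equal in both pools. Its brightest probe had scaled log2 levels of -0.15 in WT and -0.16 in CREBH-Tg, a log2 ratio of -0.013. A second probe well above background gave -0.18, within the 0.40 of its class, the dimmest, and the remaining one was not well above background on either array. Under median scaling the ratio of the brightest probe was 0.077, so its direction is not fixed.

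Genes linked to MTF1 in earlier work were listed beside it. Of 6 such genes, 5 were measured on both arrays, and their median log2 ratio was 0.18. No gene of the 5 was 2-fold apart, where 0.663% of all genes were higher and 0.67% lower by that much. Ndrg1, a stress-responsive gene, was farthest from 0 at 0.53, with levels of 1.56 and 2.09. Beyond spot noise 4 of the 5 were higher, against 20.8% of all genes and 35.8% of the brightest class. Of these 4, only Ndrg1 was also beyond the scanner's error range of 0.40. The fifth, Gclc, an enzyme of glutathione synthesis, had a log2 ratio of 0.010 and went below 0 under some scalings, where 4 to 5 of the genes were above 0. Slc39a10 passed the background criterion in CREBH-Tg but not in WT, and no fold is given.

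Among the zinc importers, Slc39a4 was higher in CREBH-Tg liver, Slc39a14 was slightly lower and Slc39a8 was near equal. Slc39a4, known for zinc uptake in the intestine, had an intensity of 2203 in WT and 4234 in CREBH-Tg. Its scaled log2 levels were 2.73 and 3.78, which makes it 2.07-fold higher, a log2 ratio of 1.05. The ratio was beyond both error ranges but close to the 2-fold threshold, and its lowest value over the alternatives was 1.01. Of 7 enterocyte markers, only Fabp2 and Sis were measured in both pools, and they went opposite ways, at log2 ratios of 0.32 and -0.81. Sis was dim, with levels of -3.30 and -4.11, and its log2 ratio ran from -0.84 to -0.14 over the alternatives. Vil1, Lct, Cdx2, Rbp2 and Alpi did not pass the background criterion in WT, and of these only Vil1 passed it in CREBH-Tg. Summed over the 2 measured markers, the log2 level was 6.95 in WT and 7.27 in CREBH-Tg, nearly all of it Fabp2, and its part in the result was not tested.

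Slc39a14, known as the importer that interleukin-6 raises in hepatocytes and as a carrier of manganese and iron as well, had scaled log2 levels of 3.74 in WT and 3.50 in CREBH-Tg. Its log2 ratio was -0.24, which is 1.18-fold lower, beyond spot noise and within the scanner's error range of 0.40. Slc39a8, which also carries manganese, had levels of 1.89 and 1.96. Its log2 ratio of 0.073 was within spot noise.

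Over the whole ZIP family, 12 of 14 genes were measured on both arrays, and the median log2 ratio was 0.11. Slc39a4 was the 1 gene at 2-fold. Beyond spot noise 4 genes were higher, Slc39a4, Slc39a1 (0.20), Slc39a13 (0.17) and Slc39a11 (0.11), and 1 was lower, Slc39a14. That is 33.3% higher beyond noise, between the 20.8% of all genes and the 35.8% of the brightest class. The count above 0 was 9 of 12, and 8 to 10 over the scalings, where 56.0% of all genes were above 0. The highest log2 ratio apart from Slc39a4 was 0.30, for the dim Slc39a6, and the lowest -0.29, for the dim Slc39a5, both within spot noise. Slc39a12 was not well above background on either array.

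Among the zinc exporters neither member reached 2-fold. Slc30a1, which carries zinc out across the plasma membrane and is a textbook target of MTF1, had an intensity of 1118 in WT and 1228 in CREBH-Tg. Its scaled log2 levels were 1.75 and 1.99, a log2 ratio of 0.24, which is 1.18-fold higher. This was beyond the 0.17 of spot noise in the middle class and within the scanner's error range of 0.40. Slc30a10, known as an exporter of manganese from hepatocytes, had levels of -0.26 and -0.18. Its log2 ratio of 0.083 was within spot noise.

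Over the ZnT family, 8 of 10 genes were measured on both arrays. No gene was 2-fold apart, where 0.663% of all genes were higher and 0.67% lower by that much. The median log2 ratio was 0.043, with 5 of 8 above 0 and 4 to 6 over the scalings. That is 62.5% above 0, near the 56.0% of all genes. Slc30a5, a transporter of the secretory pathway, was higher by 0.27. Slc30a7, of the same compartment, was lower by its brightest probe, at -0.31. A second probe of Slc30a7 gave 0.38 and another -0.19, so its direction is not settled. Slc30a3 and Slc30a8 passed the background criterion in neither pool.

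**Figure D3:**
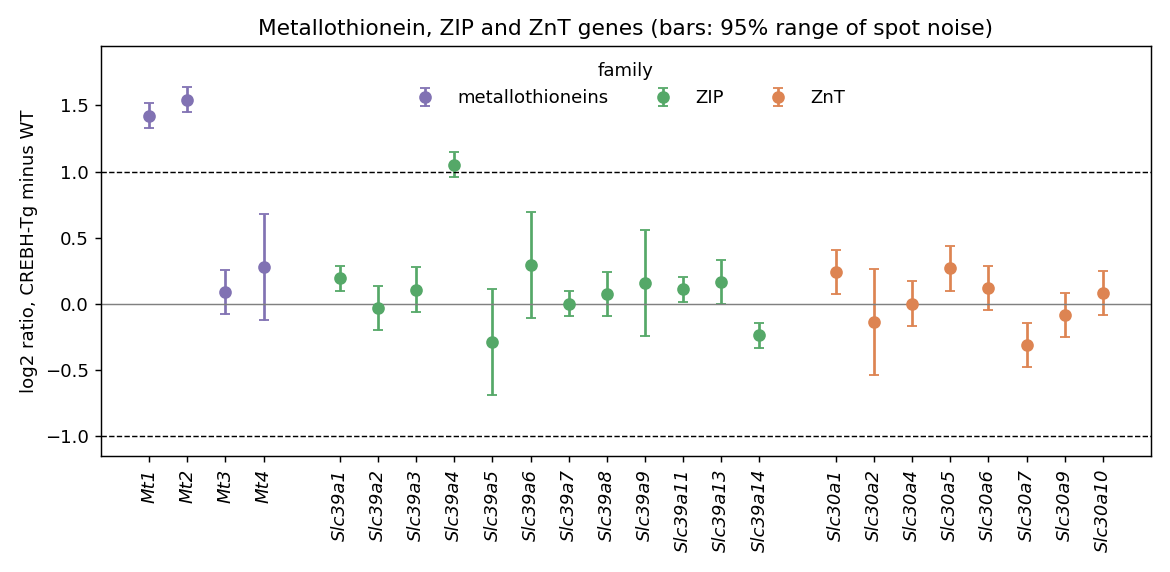
Log2 ratio of CREBH-Tg over WT (y axis) for each metallothionein, ZIP and ZnT gene measured on both arrays (x axis), with bars for the 95% range of spot noise in the gene's signal class and dashed lines at 2-fold. Mt1, Mt2 and Slc39a4 are the 3 genes at or above 2-fold, and the others lie between -0.31 and 0.30.

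Lists of genes known to respond to signals that act on metallothioneins were set beside the members. Of 23 genes known to respond to interleukin-6 and STAT3, 22 were measured, and the median log2 ratio was 0.23. Of these, 5 were at least 2-fold higher: the acute phase genes Lcn2 (4.02-fold), Saa2 (3.75-fold), Saa1 (3.41-fold), Orm3 (2.83-fold) and Saa3 (2.63-fold). That is 22.7% of the list, against 0.663% of all genes. The list was chosen with earlier results of these data known, so this share only describes it. None was 2-fold lower. Above 0 were 18 of 22, or 14 to 21 over the scalings, against 56.0% of all genes and 49.3% to 73.4% over the scalings. Beyond spot noise 14 of the 22, 63.6%, were higher and 0 lower, which again only describes the list. Of all genes 20.8% were higher and 13.3% lower beyond noise, and of the brightest class 35.8% and 15.5%. Socs3, the feedback inhibitor of the pathway, was at 0.022 and Stat3 at 0.016, both within spot noise and both named after their values were seen. Over the alternatives Socs3 ran from -0.0085 to 0.11 and Stat3 from -0.18 to 0.11, so neither direction is fixed. Slc39a14, which the same cytokine is known to raise, was at -0.24, within the scanner's error range of 0.40. The part of this cytokine in any of these values was not tested.

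The lists for the other signals held no gene at 2-fold, where 0.663% of all genes were higher and 0.67% lower by that much. The 11 glucocorticoid-responsive genes had a median log2 ratio of -0.065, from -0.093 to 0.025 over the scalings. The kinase gene Sgk1 was farthest from 0 at 0.67. Of 10 genes that respond to NRF2 under oxidative stress, 8 were measured, with a median of 0.070. Hmox1, the haem-degrading enzyme, was farthest from 0 at -0.20. For copper handling, 11 of 12 genes were measured, and the median was 0.068, from -0.0063 to 0.16 over the scalings. The copper chaperone of mitochondria Sco1 was farthest, at 0.29, and dim. For manganese handling, 6 of 6 genes had a median of 0.014, from -0.031 to 0.10. Slc11a2, a carrier of divalent metals, was farthest, at -0.18, within spot noise.

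**Figure D4:**
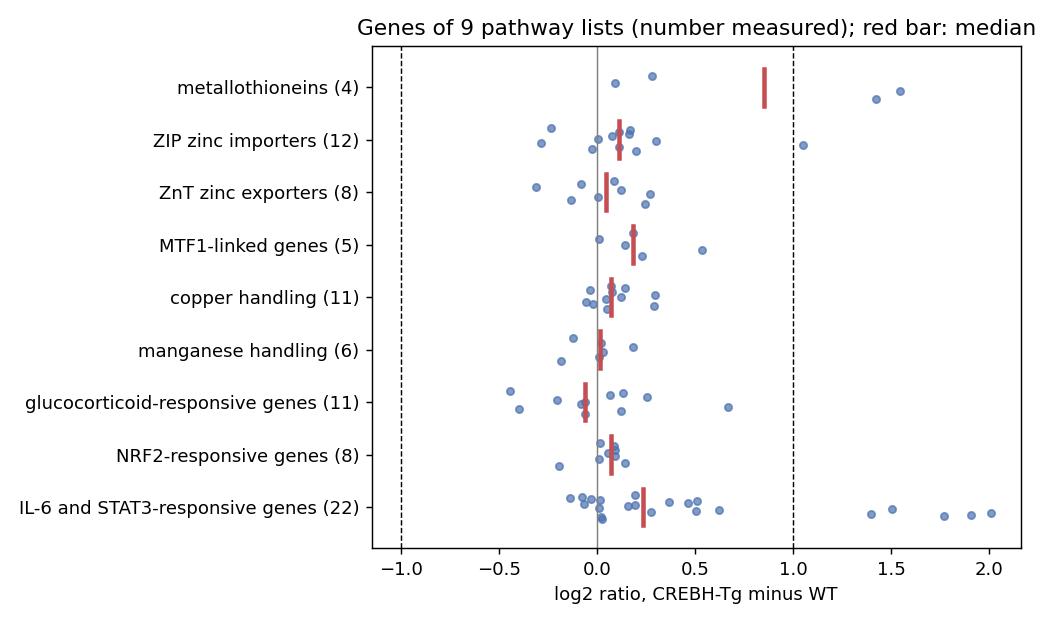
Log2 ratio of CREBH-Tg over WT (x axis) for each measured gene (points) of 9 pathway lists (y axis, number measured in brackets), with the median as a red bar and dashed lines at 2-fold. The metallothionein median is 0.85 and that of the interleukin-6 and STAT3 list 0.23, while the other lists lie between -0.065 and 0.18.

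The genes nearest to the metallothioneins in log2 ratio were sought over these 2 arrays and within the brightest class. Apart from Mt1 and Mt2 themselves, they were the acute phase genes Orm3, Apcs and Saa1. For Mt1 the nearest were Orm3, which differed from it by 0.078, Apcs, serum amyloid P, by 0.11, and Mt2 by 0.12. For Mt2 they were Orm3 at 0.042, Mt1 at 0.12 and Saa1 at 0.23. With 2 arrays this likeness is a single ratio per gene. Only 14 genes of the brightest class were at least 2-fold higher, so few could lie near. Genes outside that class also lay near but were not searched in this way. Among them the acute phase gene Saa3, of the middle class, had a log2 ratio of 1.40, beside 1.42 for Mt1. The dim adipocyte marker Retn had a log2 ratio of 1.55, beside 1.54 for Mt2.

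Markers of other cells that a liver sample can hold did not reach the size of the metallothionein ratios, apart from a few dim genes. The median log2 ratio was -0.081 for 8 macrophage and Kupffer cell markers of 9 listed, with Marco farthest at -0.96, and 0.27 for 9 of 9 lymphocyte markers. The summed log2 level was 7.48 in WT and 7.34 in CREBH-Tg for macrophages, and 3.78 and 3.92 for lymphocytes, where Cd3d was 2.14-fold higher. Of the 9 lymphocyte markers 7 lay in the dimmest class, Cd3d among them. The lowest log2 ratio of Cd3d over the alternatives was 0.61. Under the stricter filter on dim probes 2 lymphocyte markers remained, with a median of 0.10. Medians were 0.21 for 8 of 8 stellate cell and fibroblast markers, with Lum farthest at 0.72, and 0.054 for 7 of 7 endothelial markers, with Emcn farthest at 0.48. For 5 of 6 cholangiocyte markers the median was -0.51, and Krt23 was farthest at -0.55. Of these 5, 3 lay in the dimmest class, and the median ran from -0.54 to -0.16 over the scalings. Of 8 exocrine pancreas markers 4 were measured, with a median of 0.070. The dim Cela1 was farthest at 0.99, from 0.47 to 1.08 over the alternatives. Of 7 adipocyte markers 5 were measured, with a median of 0.38. Higher beyond spot noise were 4 of the 5, against 20.8% of all genes. The same held for 5 of 8 stellate cell and fibroblast, 4 of 9 lymphocyte and 4 of 9 hepatocyte markers. It also held for 2 of 7 endothelial and 1 of 4 exocrine pancreas markers, and for no macrophage or cholangiocyte marker. In the main values the dim Adipoq was 4.61-fold and the dim Retn 2.93-fold higher, while the dim Cidea was 3.67-fold lower. The size of the first pair was like that of the metallothioneins in these values, but it depended on the processing. Over the alternatives the lowest log2 ratios were 0.99 for Adipoq and 0.79 for Retn, against 1.33 for Mt1 and 1.45 for Mt2. Plin1 and Lep, the other adipocyte markers, passed the background criterion in CREBH-Tg but not in WT. The summed log2 level of the 5 was 2.92 in WT and 3.11 in CREBH-Tg. The part of these cells in the metallothionein values was not tested.

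**Figure D5:**
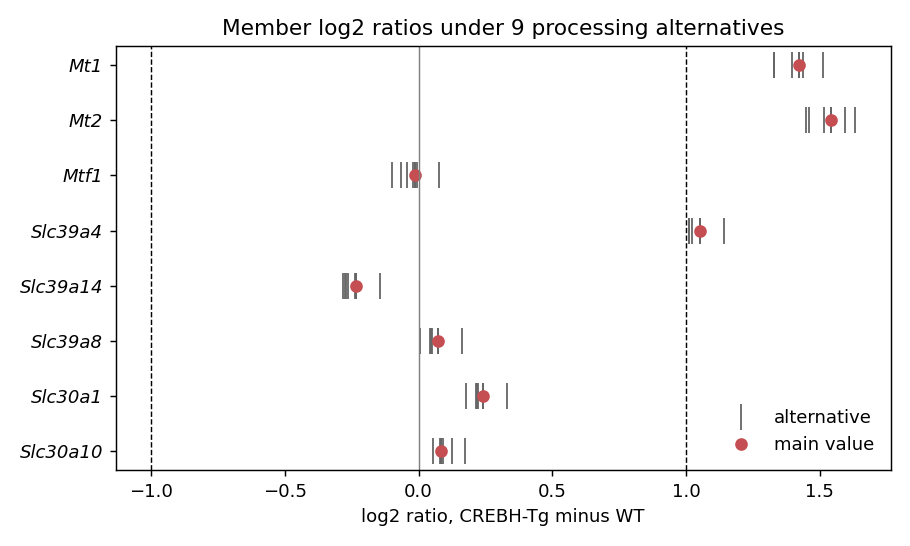
Log2 ratio of CREBH-Tg over WT (x axis) of each member (y axis) as reported (red circle) and under 9 processing alternatives (grey ticks), with dashed lines at 2-fold. Mt1 runs from 1.33 to 1.51, Mt2 from 1.45 to 1.63 and Slc39a4 from 1.01 to 1.14, and Mtf1 lies on both sides of 0.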

How the data were processed

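Liver RNA of both genotypes was labelled with Cy3 and read with Agilent Feature Extraction 10.10.1.1, on a design annotated to mm9, per the file headers. The authors' deposited processed signal is an intensity from which background was subtracted, with detrending inside the array and no scaling across arrays, per the file headers. The deposited value table holds that intensity multiplied by a constant (WT 2.59, CREBH-Tg 2.68), with medians of 89.8 and 81.0, and why these constants were chosen is unknown here. The log2 processed signal was taken less each array's 75th percentile, without control spots and 300 outlier spots. A probe was measured where more than 50% of spots passed the scanner's well-above-background call, and a gene took its brightest such probe. The direction is CREBH-Tg minus WT. Of 55677 probes, 27233 were named by accession and 13 by symbol, through a RefSeq table of GRCm38.p6. All 8 members are named, with every metallothionein, ZIP and ZnT gene open to naming. Each other pathway list names up to 4 genes 2-fold apart or the farthest, cell type lists up to 2, and the 3 genes nearest to Mt1 and Mt2 are named. Saa3, Socs3, Stat3, Gclc, Retn, Plin1 and Lep fall outside this rule and were chosen after their values were seen, as was the naming of all hepatocyte and enterocyte markers. Members and lists were chosen with earlier results of these data known. The steps were tested on simulated data. The number of arrays limits the precision. Python 3.11.15 (scipy 1.17.1, pandas 2.3.3, numpy 2.4.6) and R 4.3.3 (limma 3.58.1) were used, with lowess from statsmodels 0.14.6.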

Additional observations from a re-analysis of the deposited data

How the results depend on the processing

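The alternatives were scaling by the median or by the 75th percentile over detected probes, quantile normalization, loess (span 0.3), normexp (offset 50) on the median spot signal, the authors' value table, the mean over probes, dim probes kept or filtered more strictly, and fold thresholds of 1.5 and 3. The count of 3 members at least 2-fold higher held under 10 of 11 alternatives, and at 3-fold it was 0. Several of the 10 could not have lowered it. Mt1, Mt2 and Slc39a4 have 1 probe each, so averaging probes or changing the filter left their values the same. The authors' value table is the same intensity times a constant, and a 1.5-fold threshold could only raise the count. The count of 0 members lower held under all 11. The log2 ratio of Mt1 was 1.51 under median scaling, 1.33 under quantile normalization and 1.33 under loess. That of Mt2 was 1.63, 1.45 and 1.46 under these, and 1.59 under normexp. Median scaling, which adds 0.090 to every gene, put the ZIP median at 0.20 and the ZnT median at 0.13. Over all genes, 92 were 2-fold higher and 93 lower (49.7% of calls higher). The counts were 115 and 77 under median scaling (59.9%), 42 and 16 under normexp (72.4%), 605 and 783 with no filter, and 27 and 9 with the stricter one; the cause was not tested. No paired analysis was possible because each genotype has 1 array.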

Other observations

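The metallothionein genes lie in a row on chromosome 8, in the order Mt4, Mt3, Mt2 and Mt1, and the measured genes next to this row were looked at after the member values were seen. Of the 5 measured genes on each side, none was 2-fold apart, where 0.663% of all genes were higher and 0.67% lower by that much. A count of 0 is thus usual for so few genes. The log2 ratios of these neighbours ran from -0.43 for Ces1g, a carboxylesterase, to 0.35 for Ogfod1, with a median of -0.038. Nup93, a nuclear pore gene and the nearest measured gene beyond Mt1, had scaled log2 levels of 0.88 in WT and 0.66 in CREBH-Tg, a log2 ratio of -0.22. Herpud1, an endoplasmic reticulum stress gene and the next one, had levels of 7.01 and 7.06, a log2 ratio of 0.050. Nudt21, 2 measured genes before Mt4, was at -0.028, within spot noise. These are values from 1 array per genotype and carry no test.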
